A study of Mus musculus with 21 samples.

Results

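Recovery of untrained quadriceps muscle was followed from 6 h to 72 h after a single exhaustive treadmill run by comparing bulk RNA-seq libraries of untrained mice at the 2 times. The comparison used 6 of the 21 libraries of the series, with 3 per time point, and 11793 of the 53738 gene symbols, namely those with a mean of at least 1 TPM (transcripts of a gene scaled for length and to a fixed total per library) over the 6 libraries. The threshold on the mean fell between Gm55861, kept with a mean of 1.00 TPM, and H2-T24, left out with 0.9999 TPM. All animals were adult male C57/Bl6 wild-type mice. Untrained mice had no running wheel before the treadmill run, whereas trained mice had run voluntarily on a wheel for 12 weeks, and sedentary mice did no run. Mice were sacrificed at the named time, so the 6 h and 72 h libraries came from different animals. The clock time of sacrifice was not given in the sources used here, and time after exercise and time of day cannot be told apart.

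Exhaustive running strains muscle fibres mechanically, heats them and drains their energy stores. In the first hours afterwards, muscle transcribes genes for chaperones, which refold or hold damaged proteins, for immediate early transcription factors, for proteins that brace the sarcomere and for regulators of fuel use. Over the following days such transcripts decline and connective tissue is remodelled. The comparison of 6 h with 72 h asks which of these transcripts were still elevated at the earlier time and which came up later.

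Each library held between 40.6% and 44.3% of its TPM in transcripts of the mitochondrial genome, as is usual for a tissue with abundant mitochondria. That share was 42.6% ± 1.75 at 6 h and 43.3% ± 1.02 at 72 h (mean ± SD, n = 3 each), a difference of 0.742 percentage points that did not pass a two-sided exact permutation test (p = 0.7, where 3 against 3 cannot go below 0.10). The 12 markers of skeletal muscle fibres together held 123000 to 132900 TPM at 6 h and 126800 to 134300 TPM at 72 h, and 0 of them were called in limma (2 had an unadjusted p below 0.05). Over all 11793 tested genes, 2723 had an unadjusted p below 0.05 in limma, the background for all such counts below. Along the component of largest variance, which held 28.2% of it, the 6 h libraries lay on 1 side (24.7 to 36.9) and the 72 h libraries on the other (-24.5 to -35.3). The spread within a group was larger at 6 h than at 72 h, with median SDs over genes of 0.167 and 0.0966 on the log2 scale. TPM values carry no read counts, so depth is unknown and precision rests on the spread between libraries. In limma that spread was shared over 19 libraries of all 7 groups, with 12 residual degrees of freedom. It was thus taken as equal at 6 h and 72 h, and a fit of only the 6 libraries called fewer genes. The labels do not say that replicates came from separate animals, and the p-values measure only the spread between these samples. In bulk muscle, fewer cells of a type and less RNA per cell cannot be told apart.

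Between 6 h and 72 h, 342 genes fell and 136 rose in untrained muscle. A gene was called when its Benjamini-Hochberg adjusted p in limma was below 0.05 and it changed at least 1.5-fold in either direction. The 478 called genes made up 4.05% of those tested, with 2.9% lower and 1.15% higher. These shares are the background for the counts per list below. Without the threshold on the fold, 1097 genes (9.3%) were called. Among the falls the median log2 fold change was -0.90 (1.87-fold), 144 genes changed by at least 1 on the log2 scale, 50 by at least 2 and 16 by at least 3. The rises had a smaller median of 0.76 (1.69-fold), and 20 of them reached 1, 5 reached 2 and 3 reached 3. Over all tested genes the median was 0.018. The libraries of the 2 times did not overlap for 338 of the 342 falling genes and 135 of the 136 rising genes, beside 24.4% of all tested genes. Of the called genes, 28.5% were higher at 72 h. This share was 18.2% without 6 h replicate 1, 39.5% without 6 h replicate 2 and 15.3% when limma tested for a change beyond 1.2-fold. When TPM values were rescaled without the mitochondrial genome and the 10 most abundant genes, the counts became 336 lower and 221 higher, of which 39.7% were higher. Fold changes here are on the log2(TPM + 0.5) scale, which understates changes of genes with low TPM.

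**Figure D1:**
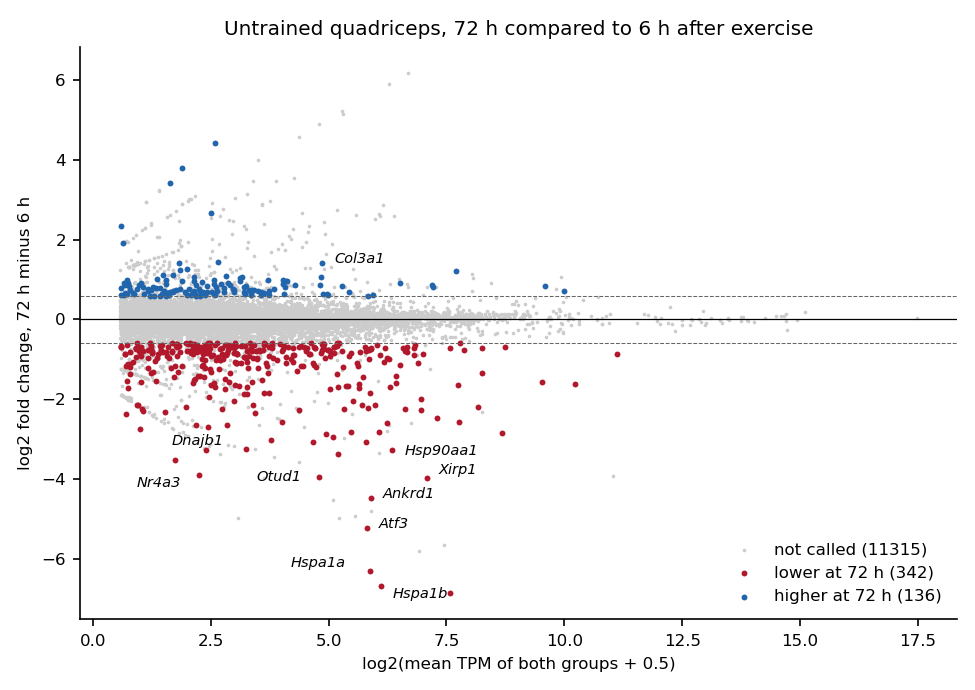
Log2 fold change from 6 h to 72 h in untrained quadriceps (y axis, 72 h minus 6 h) against the mean level of both groups (x axis, log2 of mean TPM + 0.5), with 1 point per tested gene and dashed lines at a 1.5-fold change in either direction. The 342 falling genes (red) reach -6.87, and of the 136 rising genes (blue) 20 reach 1, 5 reach 2 and 3 reach 3. Grey points beyond the dashed lines did not reach an adjusted p below 0.05 in limma.

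The inducible HSP70 genes gave the largest falls among protein-coding genes. Hspa1b (chr17:35175412-35178214, minus strand of GRCm39), which encodes a stress-inducible HSP70 chaperone, stood at 102, 181 and 124 TPM in the 6 h libraries and at 0.724, 0.854 and 0.788 TPM in the 72 h libraries. All 72 h values were therefore under 1 TPM while no 6 h library was below 100 TPM. The change was -6.68 ± 0.40 (log2 fold change ± SE, limma adjusted p = 6.32e-07, 103-fold), and the sedentary level was 0.589 ± 0.0808 TPM. Its neighbour Hspa1a (chr17:35188166-35191132, minus strand) went from 116 ± 31.6 to 0.953 ± 0.341 TPM, a change of -6.32 ± 0.36 (adjusted p = 6.32e-07). The transcripts of this gene pair share much of their sequence: 49.9% of the 100-base windows of the Hspa1b transcript also occur in Hspa1a, and their promoter windows are 98.7% identical. The split of reads between the pair is therefore uncertain. Gm20481, a long non-coding RNA on the opposite strand within Hspa1a (chr17:35188888-35191112), was named after its values were seen and fell from 378 ± 123 to 2.79 ± 1.15 TPM. Its change was -6.87 ± 0.43, and since the library kit does not mark strand, its reads and those of Hspa1a cannot be told apart.

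Bases around the transcription start of the HSP70 pair show how little separates these loci. The capitals mark the same stretch in each, just before the start, and the sequences were cut from GRCm39 around the GENCODE M39 start. This stretch is a match to the loose metal response element TGCNCNC on the other strand, which occurs in 57.8% of all promoters. It is not a heat shock element.
Hspa1a, chr17:35191125-35191154, minus strand: ggcgcagggcgGCGAGCAggtcaccagacg
Hspa1b, chr17:35178207-35178236, minus strand: ggcgcagggcgGCGAGCAgggcaccagacg

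Of 27 tested HSP70, HSP90 and co-chaperone genes, 15 fell and 0 rose, with a median of -0.79. Hsp90aa1, the stress-inducible cytosolic HSP90, measured 109, 160 and 174 TPM at 6 h and 15.8, 12.7 and 14.9 TPM at 72 h (-3.29 ± 0.30, adjusted p = 1.31e-05). Dnajb1, the HSP40 that feeds clients to HSP70, fell from 16.9 ± 3.07 to 1.29 ± 0.0886 TPM (-3.26 ± 0.21, adjusted p = 1.07e-06). Bag3, a co-chaperone that directs damaged sarcomere proteins to autophagy, fell 3.61-fold from 91.7 ± 12.7 to 24.9 ± 1.94 TPM. In every case each 6 h library exceeded each 72 h library. The other members that fell included Hspa8, Hsph1, Dnaja1, Dnaja4, Dnajb4, Stip1 and St13. Among those not called were the constitutive HSP90 gene Hsp90ab1 and the heat shock factor genes Hsf1 and Hsf2, which encode regulators of this programme. Of the 5 small heat shock proteins, 2 fell. Hspb1 went from 618, 827 and 720 TPM to 84.1, 105 and 110 TPM (-2.85 ± 0.23, adjusted p = 5.9e-06), and Hspb8, the partner of Bag3, from 438 ± 89.1 to 170 ± 14.8 TPM. Hspb6 was at 479 ± 52.8 and 383 ± 15.2 TPM and was not called (-0.32, adjusted p = 0.131).

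Heat shock factors bind inverted repeats of a 5-base unit, so promoters were searched for a heat shock element of 3 such units in a row, on both strands from 250 bases before to 50 after the start. Such a match stood in 47 of 9691 promoters of tested genes (0.485%), in 2 of the 27 chaperone promoters (7.41%) and in 0.697% of promoters of falling genes. Of those 2 chaperones, 1 was among the 15 that fell (6.67%) and 1 among the 12 that were not called (8.33%). Hspe1, the mitochondrial HSP10 co-chaperonin, named here after its values were seen, held 2 overlapping matches and fell from 95.2, 108 and 96.2 TPM to 50.1, 51.4 and 51 TPM (-0.96 ± 0.09, adjusted p = 1.78e-05). It is shown because it carries the motif in full, with the match in capitals.
Hspe1, chr1:55127210-55127239, plus strand: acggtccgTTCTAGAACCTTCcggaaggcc
Hspe1, chr1:55127215-55127244, plus strand: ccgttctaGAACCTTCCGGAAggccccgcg
A match describes letters only, and a promoter with no match in this window, such as those of the HSP70 pair, may hold the motif elsewhere or in another form.

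Of 13 tested genes for proteins of the sarcomere that respond to stretch, 9 fell, 0 rose and 4 were not called, with a median of -1.63. Ankrd1 (chr19:36089352-36097506), a titin-binding ankyrin repeat protein that also acts in the nucleus, stood at 96.4, 175 and 68.8 TPM at 6 h and at 3.75, 5.62 and 3.65 TPM at 72 h. The lowest 6 h library was thus more than 10 times the highest 72 h library, and the change was -4.47 ± 0.53 (adjusted p = 0.000128). Xirp1, an actin-binding protein recruited to damaged sites of the myofibril, went from 208, 330 and 223 TPM to 14.2, 17.3 and 14.6 TPM (-3.98 ± 0.39, adjusted p = 2.5e-05). Flnc, the muscle filamin at the Z-disc, fell 5.59-fold from 266 ± 35.3 to 47 ± 4.14 TPM, and Ankrd2 fell 4.03-fold from 200 ± 57.8 to 48.1 ± 5.52 TPM. The further falling members were Csrp3, Nrap, Cavin4, Cryab and Hspb7, while Ankrd23, Xirp2, Fhl1 and Tcap were not called. Enah, an actin polymerisation factor outside the list, fell in the same range, from 36.8, 55.5 and 42.4 TPM to 4.80, 4.97 and 4.59 TPM (-3.08 ± 0.27, adjusted p = 9.35e-06).

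**Figure D2:**
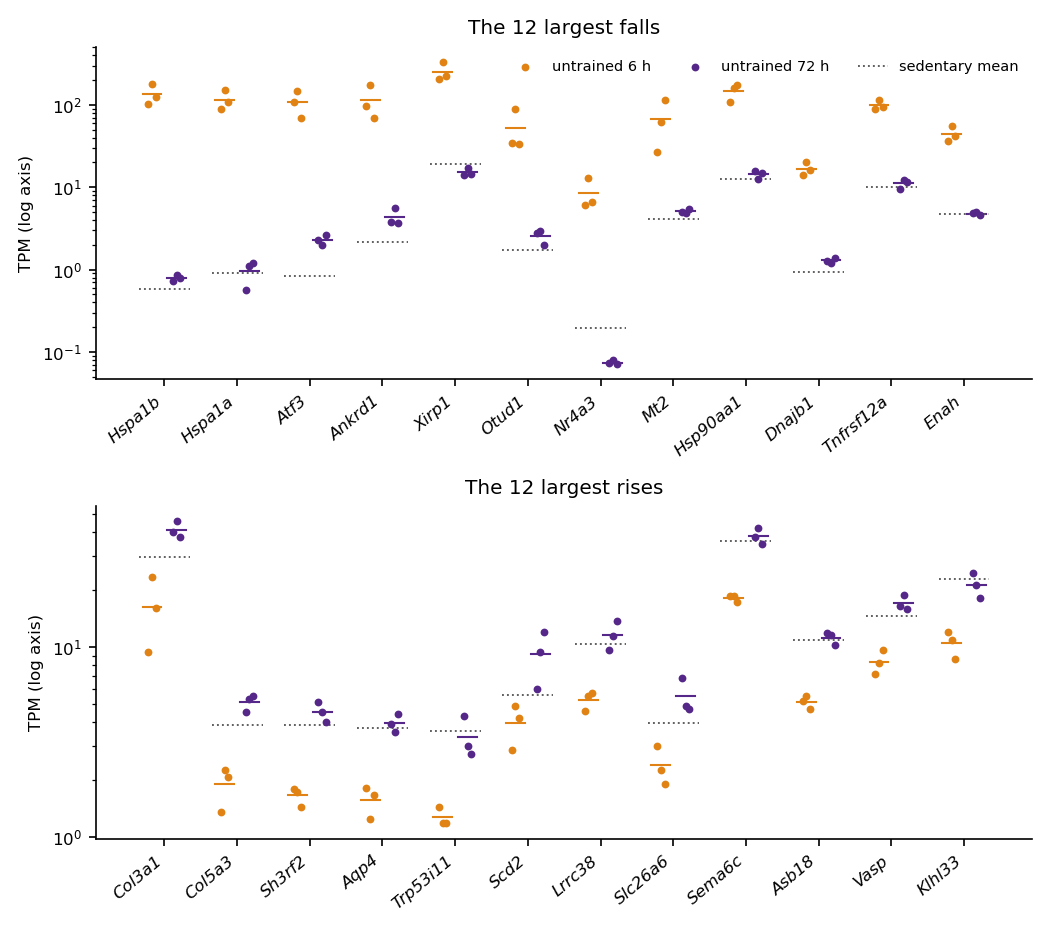
TPM on a log axis in each untrained library at 6 h (orange) and 72 h (purple) for the 12 protein-coding genes with the largest falls (top) and the largest rises (bottom), with short lines at the group means and dotted lines at the sedentary mean. For Hspa1b the 6 h points lie between 102 and 181 TPM and the 72 h points below 1 TPM, and for Asb18 the order is turned, with 4.70 to 5.52 TPM at 6 h and 10.2 to 11.8 TPM at 72 h.

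Immediate early transcription factors gave falls in each of their 4 lists, with members in every list that were not called. Of 8 tested AP-1 genes, whose products pair to bind a shared DNA element, Fos, Jun, Atf3, Maff and Mafk fell and 0 rose, with a median of -0.62. Atf3 (chr1:190902493-190950241), which is induced by many stresses, showed 109, 149 and 68.9 TPM at 6 h against 2.30, 1.97 and 2.62 TPM at 72 h (-5.23 ± 0.55, adjusted p = 4.58e-05, 37.5-fold). Its sedentary mean of 0.841 TPM lay below every library of either time. Fos went from 8.51, 18.5 and 8.77 TPM to 2.21, 0.728 and 1.44 TPM (-2.65 ± 0.50, adjusted p = 0.00471), and Jun from 18.5 ± 5.66 to 8.94 ± 0.308 TPM (1.96-fold). Directly after exercise, in the 2 untrained 0 h libraries used, Fos averaged 78.3 TPM and Jun 39.4 TPM, against 32.8 TPM for Atf3. Thus Fos and Jun were lower at 6 h than at 0 h, whereas Atf3 was higher at 6 h, which is a description with no test. Without 6 h replicate 2, 72 h replicate 2 or 72 h replicate 3, 3 AP-1 genes were called in place of 5, and 2 were called when only the 6 libraries were modelled, with 4 residual degrees of freedom in place of 12.

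Among 14 early growth response and serum response factor targets, 6 fell and 0 rose, with a median of -0.70. Ccn1, a matricellular protein induced by stretch, fell from 34.3 ± 11.1 to 6.5 ± 0.659 TPM (-2.27 ± 0.31, adjusted p = 0.000363). The antiproliferative gene Btg2 fell 2.95-fold to 3.16 ± 0.859 TPM, and Csrnp1 fell from 3.35, 10.9 and 3.85 TPM to 1.08, 0.382 and 0.889 TPM. In the model of 6 libraries, 1 gene of this list was called. The orphan nuclear receptors of the NR4A family, which control fuel genes in muscle, split. Nr4a3 was at 6.03, 12.8 and 6.65 TPM at 6 h and below 0.08 TPM in every 72 h library (-3.89 ± 0.26, adjusted p = 1.07e-06). Nr4a1 was at 23.2 ± 6.92 and 25.3 ± 2.60 TPM and was not called (0.15, adjusted p = 0.753), and Nr4a2 ranged from 0.354 to 4.95 TPM within the 6 h group. The 10 tested phosphatases and inhibitors that terminate MAP kinase signalling (dual-specificity phosphatases and sprouty genes) had 0 calls in either direction, and 5 had an unadjusted p below 0.05. Of 14 KLF and C/EBP factors, 3 fell and 0 rose. Klf5, a Krüppel-like factor, fell from 3.29 ± 1.40 to 0.751 ± 0.0676 TPM (-1.54 ± 0.20, adjusted p = 0.000293). Cyclic AMP response elements (TGACGTCA) stood in 5.23% of falling, 0.971% of rising and 3.33% of all promoters. AP-1 elements (TGANTCA) stood in 8.71% of falling, 6.80% of rising and 5.10% of all promoters.

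The metallothionein genes Mt1 and Mt2, which encode small proteins that bind zinc and copper, fell from 6 h to 72 h. Mt1 stood at 51, 62.5 and 122 TPM at 6 h and at 9.76, 9.25 and 10.4 TPM at 72 h (-2.83 ± 0.27, adjusted p = 1.78e-05). Mt2 stood at 26.9, 61.4 and 114 TPM and at 5.02, 4.80 and 5.45 TPM (-3.37 ± 0.42, adjusted p = 0.000211). The 6 h libraries thus differed about 4-fold among themselves for Mt2, yet none came near the 72 h range. Of the 6 tested metallothionein and zinc transporter genes, 3 fell and 0 rose, with a median of -0.65. Metal response elements, searched as TGCNCNC on both strands, are loose and occur in 57.8% of all promoters. Mt1 held 3 matches and Mt2 held 4, and 8.61% and 2.69% of promoters held at least as many. For each gene 1 of these matches is shown, in capitals, since this element is the known binding site of the metal-sensing factor of these genes.
Mt1, chr8:94905683-94905712, plus strand: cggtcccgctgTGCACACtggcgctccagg
Mt2, chr8:94899012-94899041, plus strand: agcatcgcctcTGCACCCggcccctcgggc

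Of 23 antioxidant genes controlled by NRF2, 4 fell (Hmox1, Txnrd1, Srxn1 and Osgin1) and 0 rose, with a median of -0.24. Srxn1, the sulfiredoxin that repairs peroxiredoxins, fell from 47.2, 76.4 and 54.8 TPM to 5.92, 10.2 and 6.02 TPM (-2.94 ± 0.29, adjusted p = 2.31e-05). Hmox1, the haem-degrading oxygenase, fell 3.25-fold from 8.73 ± 1.90 to 2.30 ± 0.124 TPM, and Txnrd1, thioredoxin reductase, fell 2.13-fold. The gene of NRF2 itself, Nfe2l2, was at 9.86 ± 1.89 and 7.35 ± 0.440 TPM and was not called (adjusted p = 0.116).

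Among 23 genes of the unfolded protein response, 4 fell and 0 rose, with a median of -0.21. Hspa5, the HSP70 of the endoplasmic reticulum, fell from 64.5 ± 11.8 to 35.7 ± 2.36 TPM (-0.83 ± 0.14, adjusted p = 0.00245), and Ppp1r15a, which restarts translation after stress, fell 2.12-fold to 7.53 ± 1.09 TPM. Without 6 h replicate 1, 7 genes of this list were called. Atf4, the central factor of the amino acid response, fell 1.64-fold from 73.5 ± 10.01 to 44.4 ± 1.74 TPM. Of 37 proteasome subunits 1 fell, Psmd11, from 56.2 ± 2.47 to 29.7 ± 2.07 TPM (-0.91 ± 0.08, adjusted p = 1.08e-05), while 33 of the 37 had values below 0 at a median of -0.10. That count is close to the share of all tested genes that fell, 2.9%. Among 26 autophagy genes, Gabarapl1 fell 3.23-fold to 17 ± 1.14 TPM and Sqstm1, the p62 cargo receptor, fell 1.71-fold to 172 ± 20.6 TPM, and 0 rose. Fbxo32, the atrogin-1 ubiquitin ligase, was at 40.5 ± 11 and 31.3 ± 3.78 TPM and was not called (adjusted p = 0.242). Of the 15 atrophy genes 5 fell, among them Ddit4, an inhibitor of mTORC1, from 6.07 ± 2.01 to 1.61 ± 0.288 TPM (-1.59 ± 0.30, adjusted p = 0.00453). The count for that list was 2 without 6 h replicate 2 or 3, and 3 without 72 h replicate 2 or 3. Among 13 p53 and growth arrest genes, Cdkn1a, the p21 cell cycle inhibitor, fell from 8.51 ± 2.59 to 3.21 ± 0.281 TPM (-1.24 ± 0.18, adjusted p = 0.000534) and Phlda3 was the other call, with 1 call left without 6 h replicate 2 or 72 h replicate 3.

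**Figure D3:**
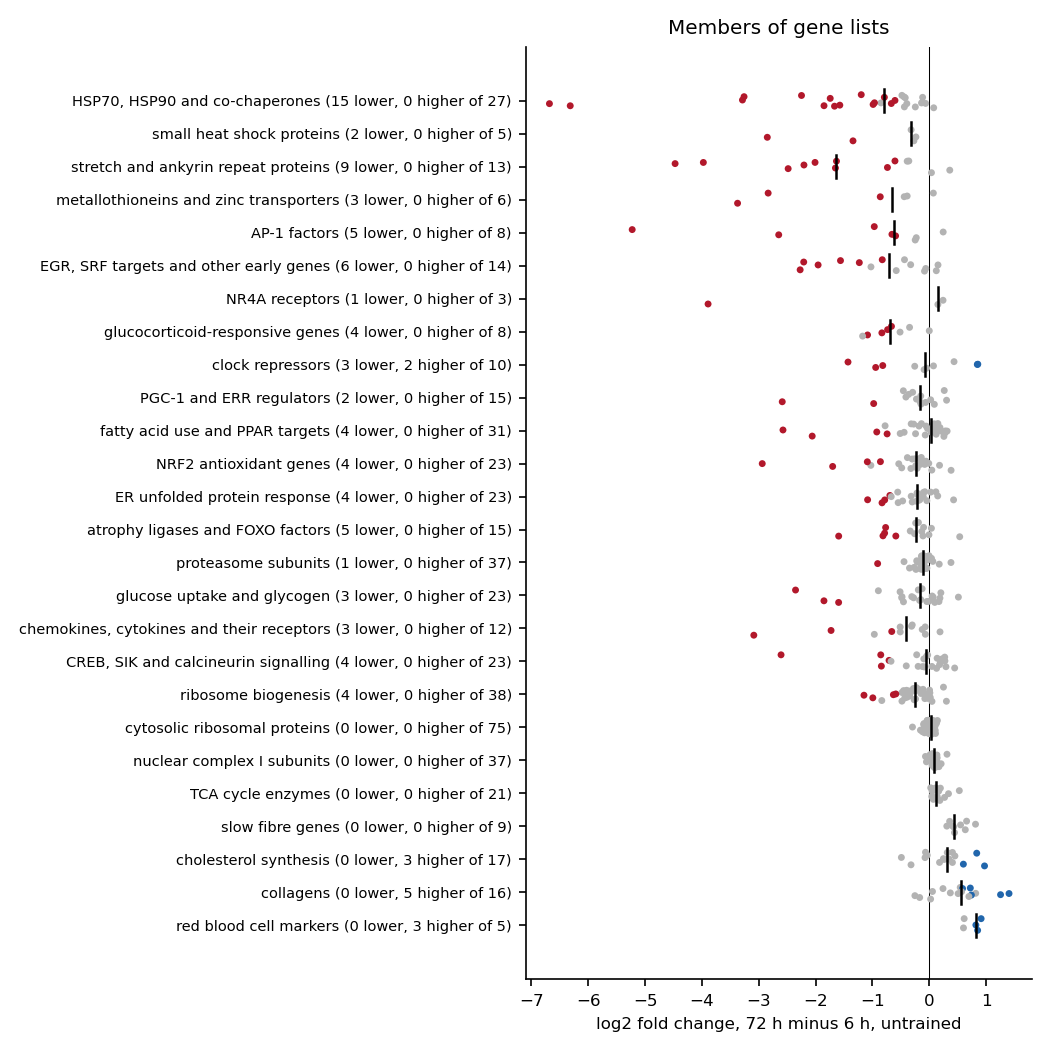
Log2 fold change from 6 h to 72 h (x axis) of every tested member of 26 gene lists, with 1 point per gene (red lower, blue higher, grey not called) and a black bar at the list median. The lists at the top, with HSP70, HSP90 and co-chaperones at 15 lower of 27, spread far to the left, while respiratory and ribosomal genes stay close to 0 and collagens lie mostly to the right.

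Clock genes were called in both directions between the 2 times. Of 10 clock repressors, 3 fell (Per1, Per2 and Cry2) and 2 rose (Nr1d1 and Bhlhe40). Per1 was at 6.71, 7.37 and 4.94 TPM at 6 h and at 2.98, 1.61 and 1.65 TPM at 72 h (-1.43 ± 0.26, adjusted p = 0.00321). Cry2 fell 1.92-fold to 5.83 ± 0.692 TPM. In contrast, Nr1d1, the REV-ERB alpha repressor, rose from 24.1, 31.2 and 27.4 TPM to 49.8, 52.9 and 46.5 TPM (0.85 ± 0.15, adjusted p = 0.00359). Bhlhe40 went from 13.3 ± 0.576 to 24.5 ± 3.59 TPM (adjusted p = 0.0129), a call lost without 72 h replicate 1 (adjusted p = 0.0586). Of 5 genes in the list of clock activators 1 fell, Nfil3, which is known as a repressor of transcription. The activators Clock and Arntl were not called, with Clock at 2.15 ± 0.701 and 2.75 ± 0.142 TPM and Arntl at 5.69 ± 1.77 and 7.36 ± 1.12 TPM. Per2 lost its call without 6 h replicate 2 or 72 h replicate 1 or 2, and with only the 6 libraries modelled, 0 of the falling repressors were called in limma. E-boxes (CACGTG), the sites of the CLOCK and BMAL1 pair, stood in 5 of the 10 repressor promoters and in 10.6% of all promoters. A gene that fell and a gene that rose are shown, both with this element in capitals.
Per1, chr11:68989234-68989263, plus strand: accccttaacgaCACGTGggccctcaattg
Bhlhe40, chr6:108636392-108636421, plus strand: ccgcgtccgggcCACGTGaagcgtcacgcc

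Genes that respond to glucocorticoids, hormones that vary with both stress and time of day, were lower at 72 h for 4 of 8 members and higher for 0, with a median of -0.70. Fkbp5, a co-chaperone of the glucocorticoid receptor, fell from 9.99, 12.7 and 9.87 TPM to 4.94, 4.45 and 5.09 TPM (-1.09 ± 0.20, adjusted p = 0.00378), and Sult1a1 fell 1.59-fold to 6.36 ± 0.367 TPM. Without 6 h replicate 3 the count was 2. Among clock outputs, 3 of 9 fell (Usp2, Tsc22d3 and Tspan4) and 0 rose, with 0 called in the model of 6 libraries. Usp2 went from 36.4 ± 6.5 to 20.8 ± 1.29 TPM (adjusted p = 0.00983) and Tsc22d3, the glucocorticoid-induced leucine zipper, from 70.8 ± 19.7 to 39.3 ± 1.29 TPM (adjusted p = 0.012).

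Of 15 PGC-1 and ERR regulators of fuel use, 2 fell, 0 rose and 13 were not called, with a median of -0.16. Ppargc1a, the PGC-1 alpha coactivator of mitochondrial genes, stood at 22.4, 33.1 and 25.9 TPM at 6 h and at 3.63, 4.53 and 4 TPM at 72 h. Even the lowest 6 h library was several times the highest 72 h library, and the change was -2.59 ± 0.20 (adjusted p = 3.6e-06, 6.01-fold). The other regulator that fell was Nrip1, the corepressor RIP140, from 2.91 ± 0.315 to 1.23 ± 0.0786 TPM (-0.98 ± 0.18, adjusted p = 0.00401). Among 31 genes of fatty acid use, 4 fell (Pdk4, Ucp3, Plin4 and Lpin1) and 0 rose, at a median of 0.034. Ucp3, the muscle uncoupling protein, fell from 74.5, 74.9 and 67.5 TPM to 29.5, 14.2 and 11.5 TPM (-2.06 ± 0.39, adjusted p = 0.00454), and Lpin1, a phosphatidate phosphatase, fell 1.67-fold. Pdk4, which blocks entry of pyruvate into the TCA cycle, measured 352, 440 and 299 TPM at 6 h and 128, 51.5 and 32.3 TPM at 72 h (-2.57 ± 0.63, adjusted p = 0.0189). The adjusted p of Pdk4 rose to 0.0609 without 6 h replicate 2, 0.0694 without 72 h replicate 2 and 0.0845 without 72 h replicate 3.

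In glucose metabolism, 3 of 23 uptake and glycogen genes fell and 0 rose. Hk2, the hexokinase that traps glucose in muscle, fell from 120, 157 and 110 TPM to 31, 47 and 50.1 TPM (-1.59 ± 0.24, adjusted p = 0.000815). Arrdc2 fell 5.11-fold from 17.5 ± 3.15 to 3.14 ± 1.26 TPM and Tbc1d1, a Rab GTPase regulator of glucose transporter traffic, fell 3.61-fold from 20.3 ± 3.76 to 5.2 ± 0.346 TPM. The insulin-responsive transporter gene Slc2a4 was at 170 ± 8.09 and 196 ± 5.37 TPM and was not called (adjusted p = 0.0729). Of 20 glycolytic genes, 2 fell. These were the regulatory enzyme Pfkfb4, from 28.9 ± 3.62 to 12.5 ± 1.06 TPM (-1.18 ± 0.11, adjusted p = 1.47e-05), and the lactate transporter Slc16a1, from 10.3 ± 1.06 to 5.42 ± 0.353 TPM (-0.86 ± 0.10, adjusted p = 7.9e-05). Odc1, which opens polyamine synthesis, fell 2.00-fold to 50.8 ± 4.82 TPM.

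Some genes for signals between cells fell. Tnfrsf12a, the receptor of the cytokine TWEAK, went from 88.3, 115 and 93.3 TPM to 9.56, 12.4 and 11.6 TPM (-3.09 ± 0.18, adjusted p = 6.32e-07). Hbegf, a membrane-bound growth factor, went from 22.6, 33.2 and 15.9 TPM to 2.11, 2.36 and 2.68 TPM (-3.02 ± 0.22, adjusted p = 2.71e-06), while Vegfa, at 88.6 ± 5.22 and 80.03 ± 4.74 TPM, was not called (adjusted p = 0.354). Both changes were far larger than the spread between replicates at either time. The chemokine gene Ccl2 fell from 2.09 ± 0.662 to 0.266 ± 0.0843 TPM (-1.73 ± 0.23, adjusted p = 0.000291), and with Cxcl14 and Tnfrsf12a it made 3 falls among 12 cytokine and receptor genes (5 without 6 h replicate 1). Nfkbia, the inhibitor induced by NF-kB, fell 1.99-fold to 6.95 ± 1.11 TPM. Rcan1, a calcineurin inhibitor induced by calcineurin itself, fell from 118, 133 and 136 TPM to 20.3, 19.6 and 22.1 TPM (-2.61 ± 0.21, adjusted p = 5.67e-06). At the neuromuscular junction, 3 of 8 genes fell and 0 rose, with a median of -0.048. Among them were Musk, the receptor kinase that clusters acetylcholine receptors, from 8.22 ± 2.97 to 2.19 ± 0.327 TPM (3.14-fold), its activator Dok7, from 8.17 ± 0.300 to 3.79 ± 0.663 TPM, and Gadd45a, from 17.5 ± 3.58 to 7.35 ± 0.477 TPM. Of 15 myogenic regulators, Myf6 (MRF4) fell from 67.7 ± 15.5 to 29.3 ± 1.73 TPM (-1.17 ± 0.15, adjusted p = 0.000227) and Myod1 was the other call. That list's count was 1 without 6 h replicate 2 or 3 and without 72 h replicate 1 or 2.

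Otud1, a deubiquitinase, belonged to none of the lists and ranked among the 12 largest falls, from 34.5, 88.3 and 33.7 TPM to 2.78, 2.98 and 2.01 TPM (-3.95 ± 0.45, adjusted p = 9.56e-05). Of the 292 falling protein-coding genes of the nuclear genome, 183 were in no list, and 32 of the 342 falls were long non-coding RNAs.

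The 12 largest rises among protein-coding genes were more modest in size than the 12 largest falls. All 5 rises of at least 2 on the log2 scale lay outside this ranking. Col5a3, a chain of fibrillar collagen V, rose from 1.35, 2.25 and 2.08 TPM to 4.53, 5.33 and 5.54 TPM (1.25 ± 0.18, adjusted p = 0.000735, 2.38-fold). Sh3rf2, an SH3 domain protein with a RING finger, rose from 1.65 ± 0.184 to 4.55 ± 0.561 TPM (1.23 ± 0.13, adjusted p = 6.33e-05), and Aqp4, the water channel of fast fibres, from 1.57 ± 0.297 to 3.98 ± 0.440 TPM (1.12 ± 0.18, adjusted p = 0.00166). Asb18, a substrate adaptor of ubiquitin ligases, was at 5.21, 5.52 and 4.70 TPM at 6 h and at 11.8, 11.5 and 10.2 TPM at 72 h (1.04 ± 0.10, adjusted p = 1.5e-05). The 6 h values of these genes lay below the sedentary means of 3.86 TPM for Col5a3, 3.89 TPM for Sh3rf2, 3.76 TPM for Aqp4 and 10.8 TPM for Asb18. Sema6c, a transmembrane semaphorin, went from 18.1 ± 0.755 to 38.1 ± 3.69 TPM and Vasp, an actin regulator of the same family as Enah, from 8.34 ± 1.22 to 16.9 ± 1.58 TPM, the opposite direction to Enah. The remaining members of the 12 largest rises were Lrrc38 (2.09-fold), Slc26a6 (2.08-fold), Trp53i11 (2.15-fold), Klhl33 (1.98-fold), Scd2 and Col3a1. Scd2, a desaturase of fatty acids, rose from 3.99 ± 1.03 to 9.13 ± 2.98 TPM (adjusted p = 0.0381), a call lost without 6 h replicate 1 or 3 or 72 h replicate 2 or 3.

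Of 16 tested collagen chains, 5 rose from 6 h to 72 h (Col3a1, Col5a1, Col5a3, Col6a1 and Col6a2), 0 fell and 11 were not called, with a median of 0.56. The list summed to 78.4 to 138 TPM at 6 h and 163 to 179 TPM at 72 h. In sedentary muscle the sum was 110 to 165 TPM, which overlapped the libraries of both times. Col3a1, the main collagen of the endomysium, was at 9.39, 23.3 and 16 TPM and at 40.3, 45.7 and 37.7 TPM (1.40 ± 0.38, adjusted p = 0.0335). Col1a1 was at 7.15 ± 2.98 and 12.3 ± 2.10 TPM and was not called (0.82, adjusted p = 0.108). The count of collagens rested on single libraries: it was 1 without 6 h replicate 1, 8 without 6 h replicate 2, 3 without 6 h replicate 3, 3 without 72 h replicate 1 or 2, and 2 without 72 h replicate 3. Col3a1 itself was not called without 6 h replicate 1 or 3 or without any 1 of the 72 h replicates. Among 20 further matrix genes, 4 rose (Fbn1, Loxl2, Mmp2 and Mmp14), with 1 rise without 6 h replicate 1 and 2 rises without 72 h replicate 2 or 3. Fbn1, the microfibril protein fibrillin, rose from 2.58 ± 0.902 to 5.28 ± 0.216 TPM (0.96 ± 0.19, adjusted p = 0.00531). Timp3, an inhibitor of metalloproteases, fell 1.64-fold from 32.2 ± 2.04 to 19.5 ± 1.08 TPM. Markers of the fibro-adipogenic cells that make much of this matrix summed to 411 to 825 TPM at 6 h and to 563 to 664 TPM at 72 h, with 1 of 13 higher. That marker was Lum, a matrix proteoglycan, which rose from 5.5 ± 1.12 to 11 ± 0.878 TPM (0.95 ± 0.14, adjusted p = 0.000815). The part of cell number in the collagen values was not tested.

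Of 17 genes of cholesterol synthesis, 3 rose (Srebf1, Insig1 and Lss) and 0 fell, with a median of 0.32. Srebf1, a master factor of lipid synthesis, rose from 8.10, 13.8 and 11.7 TPM to 21.5, 22.2 and 22.2 TPM (0.97 ± 0.19, adjusted p = 0.00511). Hmgcs1, an early enzyme of the pathway, was at 10.1 ± 0.589 and 11.4 ± 0.0894 TPM and was not called (adjusted p = 0.287). The count was 1 without 6 h replicate 1 or 2 or 72 h replicate 2 or 3, and 0 in the model of 6 libraries.

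Of the globin transcripts, which come from red blood cells in the tissue, 3 were higher at 72 h. Hba-a1, an alpha globin, stood at 103, 104 and 103 TPM at 6 h and at 272, 141 and 160 TPM at 72 h (0.82 ± 0.20, adjusted p = 0.0176). With Hbb-bs and Hbb-bt it made 3 of 5 tested red blood cell markers, and the list summed to 296 to 306 TPM at 6 h and 410 to 805 TPM at 72 h. Replicate 1 at 72 h was the highest library for each of these globins, and without it 0 of them were called (1 without 6 h replicate 3). Globin copies share sequence, with 58.7% of the 100-base windows of Hba-a1 also in Hba-a2, so their split is uncertain.

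Oxidative enzymes, ribosomal proteins and fibre type genes had 0 calls in limma between 6 h and 72 h. All 21 tested TCA cycle enzymes had values above 0, with a median of 0.12, and 9 of them had an unadjusted p below 0.05. Citrate synthase (Cs) stood at 172 ± 3.28 and 191 ± 3.17 TPM (0.15 ± 0.04, adjusted p = 0.0246), a difference under the fold threshold. Likewise 35 of 37 nuclear subunits of complex I and 39 of 41 of complexes II to V lay above 0, at medians of 0.079 and 0.12, with 9 and 19 at an unadjusted p below 0.05. Of all 11793 tested genes 2723 were below it, a share close to that of complex I. Ndufs1, a core subunit of complex I, stood at 98.1 ± 2.23 and 113 ± 2.20 TPM. Across the alternative scalings and left-out libraries the medians of these 3 lists stayed above 0. The 75 cytosolic ribosomal proteins had a median of 0.033 and 0 at an unadjusted p below 0.05, and the 13 mRNAs of the mitochondrial genome a median of -0.0094 and 3. Without 6 h replicate 1, 1 TCA cycle enzyme was called higher, and after the rescaling 1 slow fibre gene was. Slow fibre genes were above 0 for 9 of 9 members with a median of 0.44, yet the libraries varied widely, as for Myh7, the slow myosin heavy chain, with 16.4, 35.8 and 17.6 TPM against 37.5, 42.3 and 16.1 TPM.

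Markers of other cell types gave few calls, beside 4.05% of all tested genes called in either direction. Macrophage markers summed to 69.6 to 138 TPM at 6 h and 109 to 130 TPM at 72 h, with 0 of 14 called or at an unadjusted p below 0.05. Cd68, a lysosomal protein of macrophages, was at 5.06 ± 1.54 and 4.71 ± 1.06 TPM in untrained muscle at 6 h and 72 h, against 1.29 ± 0.287 TPM in sedentary muscle. The whole macrophage list summed to 78.4 to 89.8 TPM in sedentary muscle, within the range of the 6 h libraries, so Cd68 does not stand for the list. Of the neutrophil markers none reached the mean of 1 TPM, their sum was 0.948 to 1.93 TPM at 6 h and 1.57 to 1.79 TPM at 72 h, and Ngp was listed at 0 in all 6 libraries. Endothelial markers summed to 350 to 382 TPM at 6 h and 310 to 321 TPM at 72 h, with Ly6c1 the only call of 17, from 119 ± 3.06 to 72.4 ± 6.79 TPM (-0.72 ± 0.13, adjusted p = 0.00361). The median over the endothelial list was 0.11. Pericyte and smooth muscle markers summed to 95.4 to 110 TPM at 6 h and 123 to 128 TPM at 72 h, with 0 of 9 called and 3 at an unadjusted p below 0.05. Adipocyte markers summed to 231 to 420 TPM and 363 to 505 TPM, satellite cell markers to 12.5 to 18.4 TPM and 13.2 to 14.4 TPM, and Schwann cell markers to 21.2 to 25.9 TPM and 30.9 to 34.8 TPM, all without a call, and 1, 0 and 1 of their members had an unadjusted p below 0.05. After the rescaling, 1 pericyte and 1 endothelial marker were called higher, and without 6 h replicate 3, 2 endothelial markers were. Their part in the results above was not tested.

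Levels at 72 h lay close to those of sedentary muscle. The mean at 72 h was within 1.5-fold of the sedentary mean for 328 of the 342 falling genes and 128 of the 136 rising genes. Most tested genes also lay within that range, since over all 11793 the quartiles of the log2 difference were -0.044 and 0.125 at 72 h. At 6 h these quartiles were -0.113 and 0.176. At 6 h, 303 of the falling genes had stood at least 1.5-fold above sedentary muscle, and 71 of the rising genes at least 1.5-fold below it. The median difference from sedentary muscle of the falling genes was 0.30 at 0 h, 0.95 at 6 h and 0.044 at 72 h, and that of the rising genes was 0.0048, -0.59 and 0.16. These values describe genes chosen by the 6 h and 72 h libraries, and no test was made on them.

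**Figure D4:**
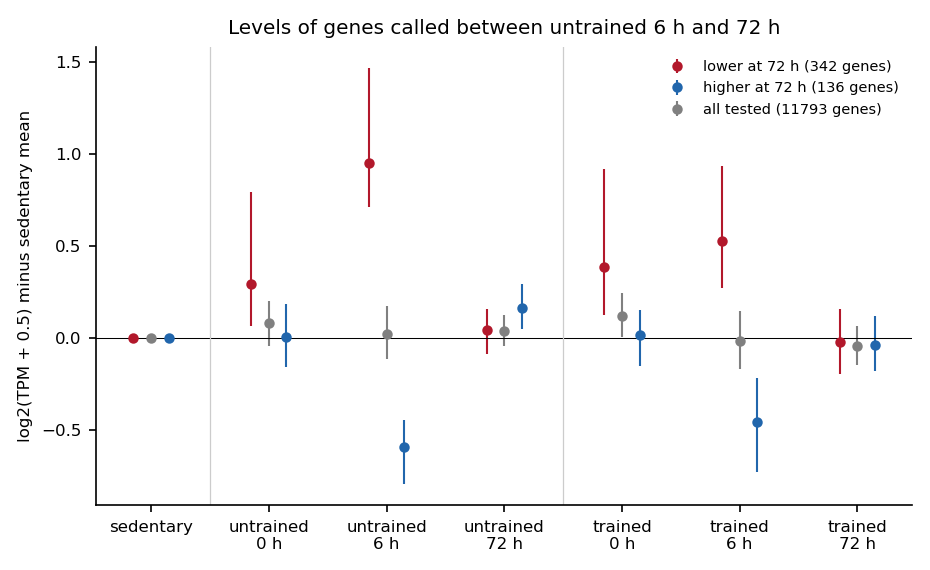
Median difference from the sedentary mean on the log2(TPM + 0.5) scale (y axis) in each group (x axis) of the 342 genes lower at 72 h (red), the 136 genes higher at 72 h (blue) and all 11793 tested genes (grey), with bars from the lower to the upper quartile over genes. In untrained muscle the red median peaks at 0.95 at 6 h and is 0.044 at 72 h, and in trained muscle at 6 h it is 0.53.

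The same interval in trained muscle gave 291 falling and 106 rising genes (2.47% and 0.899% of the genes tested, 3.37% together, and 9.26% without the threshold on the fold), from libraries that the untrained comparison does not share. Of the genes that fell, 134 were common to both, which is 39.2% of the untrained and 46% of the trained falls. Of those that rose, 33 were common, which is 24.3% of the untrained and 31.1% of the trained rises. In trained muscle the untrained falls had a median log2 fold change of -0.52, 312 of the 342 had a value below 0, and 0 were called higher. Over all tested genes the trained median was -0.026, and the trained and untrained changes had a Pearson correlation of 0.215. For the untrained rises the trained median was 0.43, with 3 called lower. Whether the change differed between the trained and untrained mice was tested as an interaction in limma, which called 73 genes (0.619%, or 0.865% without the threshold on the fold), with 35 of them above 0 (0.297%) and 38 below 0 (0.322%) for trained minus untrained change.

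Hspa1b showed the largest positive difference among protein-coding genes. In trained muscle it went from 4.23 ± 3.21 TPM at 6 h to 0.555 ± 0.112 TPM at 72 h (-1.97, adjusted p = 0.00696), and the trained minus untrained difference was 4.71 ± 0.57 (adjusted p = 0.00385). Hspa1a gave a difference of 3.84 ± 0.51 (adjusted p = 0.00553), with 5.63 ± 2.69 TPM at 6 h in trained muscle. Dnajb1 was at 1.19 ± 0.189 and 1.29 ± 0.159 TPM in trained muscle (difference 3.34 ± 0.30, adjusted p = 0.000386). Otud1 was at 3.71 ± 3.17 and 2.56 ± 0.842 TPM there (difference 3.71 ± 0.63, adjusted p = 0.0156). For each of these genes the trained 6 h mean was well below the untrained 6 h mean, while the 72 h means were both low. The Otud1 difference was not called without trained 72 h replicate 2 (adjusted p = 0.0516). Enah (difference 2.46 ± 0.38, adjusted p = 0.00915) and Per1 (difference 2.20 ± 0.36, adjusted p = 0.013) differed as well, with Per1 at 4.51 ± 0.591 and 8.14 ± 1.79 TPM in trained muscle.

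On the other side, Esrrg, an orphan nuclear receptor that drives oxidative genes, was at 4.23 ± 0.718 and 2.92 ± 0.133 TPM in untrained muscle and fell from 10.6 ± 1.38 to 2.84 ± 0.133 TPM in trained muscle (difference -1.27 ± 0.17, adjusted p = 0.00553). Dusp18, a dual-specificity phosphatase, was at 1.71 ± 0.107 and 2.15 ± 0.385 TPM in untrained and fell from 6.38 ± 0.439 to 2.27 ± 0.532 TPM in trained muscle (difference -1.59 ± 0.24, adjusted p = 0.00915). For both genes the means of trained and untrained muscle lay close at 72 h, and at 6 h the trained mean was the higher. G0s2, an inhibitor of fat breakdown, differed by -2.05 ± 0.37 (adjusted p = 0.0204), with 7.54 ± 0.742 and 8.86 ± 3.42 TPM in untrained and 19.9 ± 1.03 and 5.13 ± 1.43 TPM in trained muscle, and was not called without trained 6 h replicate 3 (adjusted p = 0.0587) or trained 72 h replicate 3 (adjusted p = 0.0591). Arntl, which encodes BMAL1, differed by -1.67 ± 0.29 (adjusted p = 0.0188), a call lost without trained 72 h replicate 2, trained 72 h replicate 3 or untrained 72 h replicate 3. Gpt, alanine aminotransferase, rose 1.56-fold in untrained muscle, a call lost without any 1 of the 6 libraries, and fell in trained muscle (-0.64, adjusted p = 0.0318), with a difference of -1.28 ± 0.24 (adjusted p = 0.0271). Leaving out any 1 of 8 of the 12 libraries ended that last call.

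Several large falls were seen in both sets of mice, and their difference was not called. Ppargc1a fell by 3.09 on the log2 scale in trained muscle, from 39 ± 9.75 to 4.04 ± 0.323 TPM, and its difference of -0.50 ± 0.28 was not called (adjusted p = 0.553). Tnfrsf12a fell from 31.7 ± 10.6 to 3.61 ± 0.568 TPM in trained muscle (difference 0.16 ± 0.26, adjusted p = 0.887), Mt2 from 48.7 ± 21.1 to 4.24 ± 1.60 TPM (difference 0.049 ± 0.60, adjusted p = 0.993) and Hk2 from 135 ± 15.5 to 43.8 ± 14.1 TPM (difference -0.054 ± 0.34, adjusted p = 0.983). A p above the threshold does not show that the changes were equal. For Mt2 the SE of 0.60 leaves room for a sizeable difference.

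**Figure D5:**
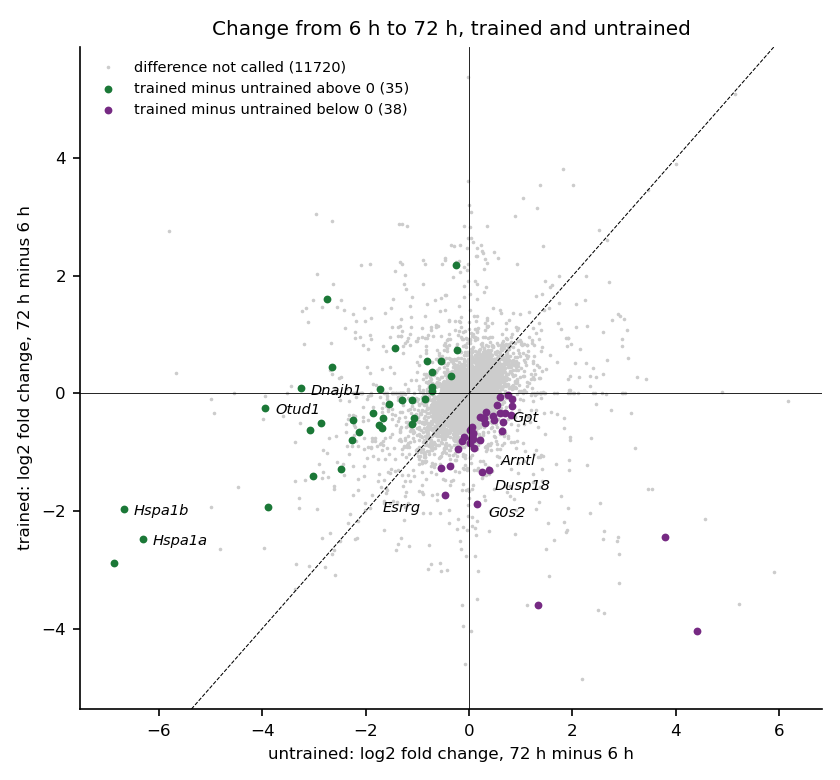
Log2 fold change from 6 h to 72 h in trained muscle (y axis) against that in untrained muscle (x axis), with 1 point per tested gene and a dashed line of equal change. The 35 green points, with Hspa1b at -6.68 and -1.97, lie above the line, and the 38 purple points, with Esrrg at -0.46 and -1.73, lie below it.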

How the data were processed

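Bulk RNA-seq libraries of quadriceps, 3 for each of 7 groups, were the material. Per the submitters' processing notes, reads were handled with STAR 2.7.9 and Salmon 1.5.0 on GRCm39, and the authors deposited TPM values per gene symbol, which sum to nearly the same total in every library. The annotation release was not given in the sources used here. Coordinates, transcription starts and gene classes were taken from GENCODE M39, which matched 98.1% of the tested symbols. Classes of symbols without a match were looked up in RefSeq. Promoter sequences were cut from the GRCm39 primary assembly around the start of the canonical transcript.

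Deposited TPM values were transformed to log2(TPM + 0.5), and those genes whose mean in the 6 untrained 6 h and 72 h libraries reached 1 TPM entered limma 3.58.1 in R 4.3.3 (trended variance, Benjamini-Hochberg over 11793 genes). A mean per group was fitted over 19 libraries with 12 residual degrees of freedom. Replicate 1 of untrained 0 h and of trained 0 h held identical values and both were left out. The trained recovery and the trained minus untrained difference were contrasts of the same fit. The mitochondrial share was compared with an exact permutation test. The test was tested on simulated data: of 100 genes changed by 1 on the log2 scale 84% were called, of 100 changed by 2 95%, and of 11218 unchanged genes 3. The changed genes all had a mean level of about 5 TPM or more, so these shares do not cover genes between 1 and 5 TPM. Each simulated gene also had the same normal spread in every group, whereas the real median SDs were 0.167 at 6 h and 0.0966 at 72 h.

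Named genes were the 12 largest falls and rises among called nuclear protein-coding genes without overlap of libraries, up to 4 examples per list (the first members tested or those of smallest p) and the 5 largest differences in each direction. Results on some items that the rule would name are not reported here. Genes and lists were chosen with earlier results of these data known. Replicate numbers paired no libraries. Deviations from the group mean in same-numbered 6 h and 72 h libraries correlated at -0.0228, -0.0297 and 0.0300.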

Additional observations from a re-analysis of the deposited data

Results flagged for a closer look

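The change from 6 h to 72 h differed between trained and untrained muscle, by the interaction contrast in limma, for 22 genes named in the text. The differences are given as trained minus untrained log2 fold change. They were 4.71 for Hspa1b, 3.98 for Gm20481, 3.84 for Hspa1a, 3.71 for Otud1, 3.34 for Dnajb1, 2.46 for Enah, 2.20 for Per1, 1.97 for Nr4a3, 1.80 for Ccl2, 1.61 for Hbegf, 1.53 for Tbc1d1, 1.46 for Klhl40, 1.37 for Per2, 1.36 for Klf5, 1.19 for Flnc, 1.11 for Gabarapl1 and 0.81 for Timp3. Below 0 they were -2.05 for G0s2, -1.67 for Arntl, -1.59 for Dusp18, -1.28 for Gpt and -1.27 for Esrrg. The adjusted p ranged from 0.000386 for Dnajb1 to 0.0401 for Flnc and Klf5. Of these, Hspa1b, Hspa1a, Gm20481, Dnajb1, Enah, Per1, Dusp18, Esrrg and Timp3 were called with any 1 library left out, and each of the other 13 lost the call without at least 1 library.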

How the results depend on the processing

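For the change from 6 h to 72 h in untrained muscle, the count of called genes became 299 (69 higher) with a mean of at least 5 TPM, 237 (67 higher, 170 lower) when only the groups compared were fitted, 215 (33 higher, 182 lower) when tested against a fold of 1.2, 1097 (464 higher, 633 lower) without a fold threshold, and 221 were higher after rescaling. For trained recovery the corresponding counts were 248 (51 higher) at 5 TPM, 185 (32 higher, 153 lower) against a fold of 1.2, 1092 (316 higher, 776 lower) without a fold threshold, and 198 higher after rescaling. For the trained minus untrained difference they were 39 (23 higher, 16 lower) at 5 TPM, 44 (17 higher) with only the groups compared, 115 (71 higher) with sample weights, and 18 (13 higher, 5 lower) against a fold of 1.2. Its higher calls were 63 with median-of-ratios scaling and 59 with quantile normalization, and its lower calls 66 without a fold threshold.

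Leaving out 1 library at a time gave 388 to 550 calls (100 to 177 higher, 271 to 450 lower) for untrained recovery, 334 to 418 (67 to 111 higher, 251 to 314 lower) for trained recovery and 37 to 108 (18 to 71 higher, 19 to 51 lower) for the difference, and a mitochondrial share difference of -0.264 to 1.32 percentage points. The trained rises were 67 without trained 72 h replicate 2. The difference had 38 calls without trained 6 h replicate 3, 37 without trained 72 h replicate 2 or 3 or untrained 72 h replicate 2, 44 without untrained 72 h replicate 1, 42 without untrained 72 h replicate 3, and 71 higher calls without untrained 6 h replicate 1. With the replicate number as a block, untrained recovery had 132 higher and 333 lower calls, and the numbers did not pair the libraries.

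Of 99 genes whose values are in the text and that were called in untrained muscle, 68 were called in every alternative. Signs turned for 3 genes that were not called: with 1 library left out, G0s2 ranged from -0.118 (without untrained 72 h replicate 3) to 0.37, Nr4a2 from -0.29 (without untrained 6 h replicate 1) to 1.04, and Cd68 from -0.22 to 0.13 (without untrained 6 h replicate 2), and Nr4a2 was -0.19 with sample weights. In a promoter window of 100 bases before the start, AP-1 elements stood in 3.48% of falling, 3.88% of rising and 2.37% of all promoters, so that rising then stood above falling promoters. Cyclic AMP response elements in that window stood in 3.48% of falling, 0% of rising and 2.88% of all promoters. The causes of these changes were not tested. Depth, which TPM does not carry, limits what can be said of genes near 1 TPM.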

Other observations

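Some genes outside the lists and outside the naming rules were looked at after their values were seen. Klhl40, which stabilises thin filaments and is mutated in nemaline myopathy, stood at 145, 206 and 136 TPM at 6 h and at 30.6, 37.6 and 31 TPM at 72 h (-2.26 ± 0.18, limma adjusted p = 5.67e-06). Its relative Klhl31 rose instead, from 19, 19.6 and 19.6 TPM to 35.8, 36.6 and 34.4 TPM (0.86 ± 0.09, adjusted p = 2.65e-05). Lmod2, an actin nucleator of the thin filament, fell 3.06-fold, Abra, an actin-binding activator of SRF signalling, fell 4.44-fold, and Lmcd1, a LIM domain protein, fell from 206 ± 24.1 to 42.4 ± 4.58 TPM. In trained muscle Klhl40 fell from 40.7 ± 13.1 to 22.5 ± 1.11 TPM.

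Other genes of this kind, also picked for their values, were Glul, Gpt2, Slc38a2 and Ubb. Glul, glutamine synthetase, went from 114, 151 and 98.8 TPM to 33.9, 42.4 and 34 TPM (-1.69 ± 0.17, adjusted p = 3.74e-05), and Gpt2, the mitochondrial alanine aminotransferase, from 88.7 ± 16.8 to 47.2 ± 0.853 TPM. The amino acid transporter Slc38a2 fell 2.27-fold, and Ubb, a polyubiquitin gene, fell 1.61-fold from 528 ± 68.3 to 326 ± 13.9 TPM.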
